A study of Mus musculus with 24 samples.

Results

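The first 2 h of a chase were examined in mouse 3T9 cells, an immortalised fibroblast line, whose newly made RNA had been marked with 4-thiouridine (4SU). The comparison sets 3 libraries labelled 2 h of chase against 3 labelled 0 h, paired by experiment (experiments 1 to 3), so it uses 6 of the 24 libraries of the series. All were cultures of that line in DMEM with serum, and the labels name no genetic change. All labelled cultures had received 300 µM 4SU for 3 h; the 2 h cultures had then been chased with 1 mM uridine, while the 0 h cultures stand for the end of the pulse, so the groups differ in uridine as well as in time. 4SU-containing RNA was coupled to biotin, captured on streptavidin beads and sequenced as small RNA. The other labelled libraries (4 to 12 h of chase) served to estimate the spread, and 3 single control libraries are given beside the results: unlabelled cells without capture (unlabelled total RNA), 4SU-treated cells without capture (4SU total RNA), and a mock capture from unlabelled cells, called the negative extraction. Reads were summed per mature miRNA over 8 isoform classes and are given as CPM, that is, scaled to a common library total.

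MicroRNAs are cut from hairpin precursors, first by Drosha in the nucleus and then by Dicer in the cytoplasm, which leaves a duplex of the 5p and the 3p arm. One strand, the guide, is kept by Argonaute, and the other, the passenger, is usually discarded and degraded. When unlabelled uridine replaces 4SU, transcripts that are already labelled can still be processed, so a mature miRNA can lose or gain share in the captured pool. Here the arm of a hairpin that dominates in the 2 total RNA libraries is called major, and its partner minor. The values are shares of a captured pool with no spike-in, so fewer labelled cells and less labelled RNA per cell cannot be told apart, and no value below is a half-life.

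The 6 libraries held 2438876 to 7886484 miRNA counts, so that 3 counts corresponded to 0.380 to 1.23 CPM. The negative extraction held 283922 counts, where 3 counts corresponded to 10.6 CPM. In these 6 libraries, 61.5 to 65.3% of counts belonged to the top 10 miRNAs. Mesenchymal miRNAs such as miR-21a-5p, miR-143-3p and miR-22-3p were abundant, and the 13 members of that list summed to 177289 to 258398 CPM at 0 h and 140403 to 247128 CPM at 2 h. Of the 7 epithelial markers, which summed to 295 to 1151 CPM over both times, miR-205-5p carried nearly all counts, and miR-200a-3p was at 0 in all 6 libraries. Of the 7 blood markers (189 to 592 CPM), miR-486a-5p carried nearly all counts, and miR-144-3p was at 0. The muscle list summed to 4.31 to 22.1 CPM, with miR-1a-3p and miR-133b-3p at 0, and the neuron list to 422 to 587 CPM. The table's second header line gives the 0 h library of experiment 1 another code prefix than the other libraries of that experiment, which the labels do not explain, and results are therefore also given without it.

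A selection of the hairpins whose minor arm was lost against the major arm (below) is shown by sequence. Both strands of a duplex can thus be read side by side. The selection is not a ranking, and some hairpins left out had larger changes than some of those shown. Sequences are RefSeq mature miRNAs (GRCm38.p6), 5′ to 3′, with the seed (bases 2 to 8) in capitals. For each pair the minor arm stands first.
miR-16-1-3p: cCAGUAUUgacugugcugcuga
miR-16-5p: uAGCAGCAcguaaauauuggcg
miR-92a-1-5p: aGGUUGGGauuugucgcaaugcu
miR-92a-3p: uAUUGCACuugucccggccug
miR-26a-2-3p: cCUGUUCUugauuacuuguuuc
miR-26a-1-3p: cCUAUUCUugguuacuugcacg
miR-26a-5p: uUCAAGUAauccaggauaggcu
miR-26b-3p: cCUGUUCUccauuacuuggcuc
miR-26b-5p: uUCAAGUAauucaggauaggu
miR-181a-1-3p: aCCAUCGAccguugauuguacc
miR-181a-5p: aACAUUCAacgcugucggugagu
miR-155-3p: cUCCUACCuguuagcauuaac
miR-155-5p: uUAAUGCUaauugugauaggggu
miR-125b-1-3p: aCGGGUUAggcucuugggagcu
miR-125b-5p: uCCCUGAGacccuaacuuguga

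Among these minor arms, miR-26a-2-3p and miR-26b-3p share the seed CUGUUCU, while miR-26a-1-3p has the seed CUAUUCU. Their major arms share the seed UCAAGUA. The Mir16-1 minor arm lies at chr14:61631894-61631915 on the minus strand, in an exon of the noncoding transcript Dleu2. The Mir92-1 minor arm lies at chr14:115044437-115044459 on the plus strand, in an exon of Mir17hg, the primary transcript of the miR-17-92 cluster. All 3 miR-26 hairpins lie in genes of small C-terminal domain phosphatases: Mir26a-1 in an intron of Ctdspl (minor arm chr9:119031850-119031871, plus strand), Mir26a-2 in Ctdsp2, annotated as exonic in at least one transcript (chr10:126995581-126995602, plus strand), and Mir26b in an intron of Ctdsp1 (chr1:74394360-74394381, plus strand). Mir155 lies in an exon of the lincRNA Mir155hg (minor arm chr16:84714182-84714202, plus strand). Host annotations are from GENCODE M21.

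Between 0 h and 2 h, 13 mature miRNAs fell and 1 rose out of 414 tested, and 11 of the 13 that fell were minor arms of their hairpins. The largest falls were those of miR-16-1-3p, 4.88-fold, and miR-26a-2-3p, 3.30-fold, and the only miRNA that rose was miR-149-5p, 1.49-fold. The calls are from edgeR's quasi-likelihood test with the experiment as a block, at a Benjamini-Hochberg adjusted p under 0.05. They amount to 3.38% of the miRNAs tested, with 3.14% falling and 0.242% rising, and the median log2 change of all 414 was -0.02. Each of the 13 was lower at 2 h in 3 of 3 experiments, which held for 23.2% of all tested miRNAs. In 7 of the 13, all 2 h values lay below all 0 h values, against 5.07% of all tested. The fits borrow the spread from all 21 labelled libraries: with the 6 libraries alone, 0 miRNAs were called and 53 had an unadjusted p under 0.05, and without the block 0 were called and 10 had an unadjusted p under 0.05. Leaving out the experiment 1 library at 0 h gave 0 calls, that of experiment 2 gave 4, the 2 h library of experiment 1 gave 4 and that of experiment 3 gave 3. Leaving out all of experiment 1 gave 0 calls, and all of experiment 3 gave 6.

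**Figure D1:**
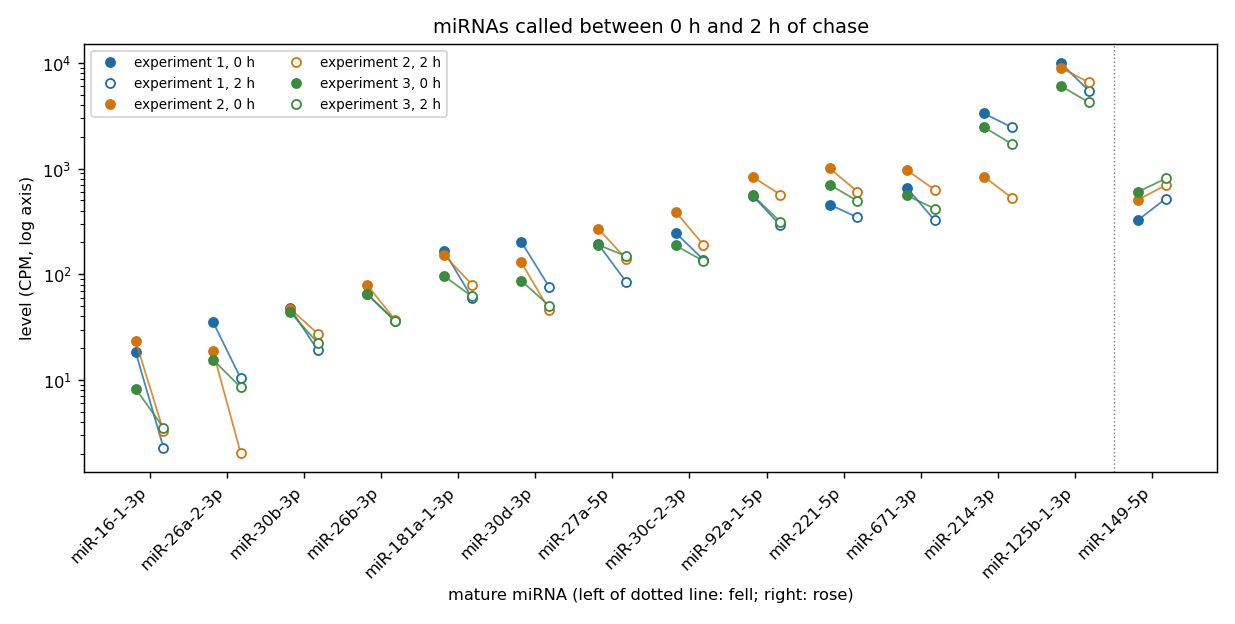
Level of the 14 called miRNAs in each library (CPM, log axis), with filled points for 0 h and open points for 2 h, joined within an experiment (colour). All 13 miRNAs left of the dotted line were lower at 2 h in 3 of 3 experiments, and miR-149-5p on the right was higher in 3 of 3.

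The minor arm of Mir16-1, a hairpin whose guide miR-16-5p restrains cell-cycle genes, showed the largest fall. At 0 h miR-16-1-3p measured 18.2, 23.2 and 8.24 CPM in experiments 1 to 3, and at 2 h 2.28, 3.28 and 3.53 CPM. The groups did not overlap, and the log2 change was -2.29 ± 0.39 (SE; edgeR adjusted p = 0.00153). These levels rest on 38 to 141 counts at 0 h and 8 to 19 counts at 2 h. The guide miR-16-5p, which comes from 2 genes, Mir16-1 and Mir16-2, was at 17358, 10768 and 13379 CPM and then at 18589, 7857 and 12634 CPM. Its groups overlapped and its log2 change was -0.09 ± 0.12 (edgeR adjusted p = 0.860). In the negative extraction miR-16-1-3p had 1 count, under the floor of 3.

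The minor arms of the miR-26 family fell beside guides with smaller fitted changes in the same direction. miR-26a-2-3p went from 35.7, 18.9 and 15.6 CPM to 10.4, 2.05 and 8.54 CPM, with no overlap between the times (log2 change -1.72 ± 0.39, edgeR adjusted p = 0.00901). The lowest of these values rests on 5 counts. miR-26b-3p measured 65.2, 79.5 and 65.2 CPM at 0 h and 36.4, 37.3 and 36.2 CPM at 2 h, again without overlap and with a narrow spread at 2 h (log2 change -0.86 ± 0.19, edgeR adjusted p = 0.00901). The Mir26a-1 minor arm, miR-26a-1-3p, had 12.5, 12.6 and 10.6 CPM and then 5.20, 3.28 and 6.31 CPM, but did not pass the test over all miRNAs (log2 change -1.25 ± 0.43, edgeR adjusted p = 0.137). The shared guide miR-26a-5p, a regulator of growth and differentiation, had a log2 change of -0.17 (edgeR adjusted p = 0.628). It was lower at 2 h in each experiment, at 44413, 27275 and 28609 CPM and then 42969, 19369 and 25849 CPM, and the times overlapped. The guide miR-26b-5p had a log2 change of -0.20 in the fit of hairpin arms.

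In the miR-30 family, whose guides are known to restrain profibrotic genes, 3 of 11 tested members fell (27.3%, beside 3.14% of all tested and 9.40% of minor arms), and all 3 were 3p minor arms. miR-30d-3p measured 203, 130.2 and 86.9 CPM at 0 h and 76.3, 46.3 and 50.5 CPM at 2 h, without overlap (log2 change -1.22 ± 0.24, edgeR adjusted p = 0.00495). miR-30b-3p went from 47.8, 47.4 and 44.0 CPM to 19.1, 27.5 and 22.5 CPM, also without overlap (log2 change -0.98 ± 0.24, edgeR adjusted p = 0.0158). miR-30c-2-3p measured 248, 392 and 187 CPM and then 138, 191 and 134 CPM; the times overlapped between experiments, although each experiment fell (log2 change -0.74 ± 0.15, edgeR adjusted p = 0.00559). The other 3p arms of the family did not pass: miR-30a-3p had a log2 change of -0.29 ± 0.14 and miR-30e-3p one of -0.20 ± 0.13. The most abundant guide of the family, miR-30d-5p, was at 11981 ± 599 CPM (SD, n = 3) at 0 h and 11393 ± 1278 CPM at 2 h. The median log2 change of the 11 members was -0.20, beside -0.02 for all tested.

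Further minor arms came from hairpins of the miR-181, miR-17-92, miR-23a-27a-24-2, miR-125 and miR-221 loci. miR-181a-1-3p, whose guide is known from lymphocyte development, measured 165, 152 and 96.0 CPM at 0 h and 60.1, 80.0 and 61.8 CPM at 2 h, without overlap (log2 change -0.99 ± 0.21, edgeR adjusted p = 0.00728). miR-27a-5p went from 192, 269.6 and 189 CPM to 84.7, 139 and 149 CPM, without overlap (log2 change -0.78 ± 0.18, edgeR adjusted p = 0.00901). It lies at chr8:84208685-84208706 on the plus strand. Its major arm miR-27a-3p had a log2 change of -0.27 in the fit of hairpin arms. The change of miR-27a-5p against that arm, tested below, was not called. miR-92a-1-5p measured 555, 837 and 561 CPM at 0 h and 290.5, 567 and 314 CPM at 2 h (log2 change -0.74 ± 0.15, edgeR adjusted p = 0.00583). Its groups overlapped because experiment 2 was high at both times. Of the 7 tested passenger strands of the miR-17-92 cluster and its paralogs, 1 was called (14.3%, beside 3.14% of all tested and 9.40% of minor arms), and that was miR-92a-1-5p.

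Among all miRNAs that fell, the most abundant was miR-125b-1-3p, from a relative of the worm miRNA lin-4. It measured 9900.1, 8987 and 6046 CPM at 0 h and 5470.0, 6546 and 4237 CPM at 2 h, with overlap between experiments (log2 change -0.56 ± 0.13, edgeR adjusted p = 0.0104). Its major arm miR-125b-5p, made from Mir125b-1 and Mir125b-2, measured 9827, 11593 and 10269 CPM and then 11777, 12364 and 12499.9 CPM, without overlap but short of the threshold (log2 change 0.27 ± 0.12, edgeR adjusted p = 0.334). miR-221-5p, the minor arm of a hairpin whose guide targets the cell-cycle inhibitor p27, went from 456, 1004 and 702 CPM to 346, 607 and 495 CPM (log2 change -0.49 ± 0.12, edgeR adjusted p = 0.0158). In both the times overlapped across experiments, and each experiment was lower at 2 h.

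The remaining pair of miRNAs that fell were major arms. miR-671-3p, which lies in an exon of Chpf2 (chr5:24592171-24592191, plus strand), measured 661, 968 and 557 CPM at 0 h and 324, 632 and 419 CPM at 2 h (log2 change -0.63 ± 0.16, edgeR adjusted p = 0.0158). Its other arm, miR-671-5p, went from 93.5, 35.1 and 101 CPM to 61.5, 18.5 and 81.1 CPM and did not pass (log2 change -0.51 ± 0.21, edgeR adjusted p = 0.296). miR-214-3p, a mesenchymal miRNA from the Dnm3os transcript (chr1:162223438-162223459, plus strand), measured 3330.3, 841 and 2471 CPM and then 2464, 529.8 and 1713 CPM. The experiments differed more from each other than the times did, and each experiment fell (log2 change -0.48 ± 0.13, edgeR adjusted p = 0.0430). This was the called miRNA nearest the threshold, and on the other side of it lay miR-3058-3p at an adjusted p of 0.0558 in the same edgeR test.

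Every direction named for the 14 called miRNAs was kept in all 20 other settings run, but the calls were not. Without experiment 1 the 13 log2 changes ranged from -1.81 for miR-16-1-3p to -0.33 for miR-125b-1-3p, with edgeR adjusted p-values of 0.371 to 0.593.

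The control libraries place these levels. At 0 h the mean of 9 of the 13 miRNAs that fell lay above both total RNA libraries, and at 2 h the mean of 4 of the 13 lay below both. The shares over all tested miRNAs were not counted. The 13 were selected for a higher level at 0 h than at 2 h, so these counts are a description and not a trait of the set. miR-92a-1-5p was at 695 CPM in unlabelled total RNA and 1068 CPM in 4SU total RNA, against 651 ± 161 CPM (SD, n = 3) at 0 h and 390.5 ± 153 CPM at 2 h. In the negative extraction, 11 of the 13 lay below their lowest 0 h library, as did 47.6% of all tested miRNAs. The selection for a higher level at 0 h bears on this count too, so it is also a description. miR-92a-1-5p had 66.9 CPM there (19 counts), while miR-125b-1-3p had 4969.7 CPM (1411 counts), which is close to its 2 h level of 5418 ± 1155 CPM. miR-671-3p at 606 CPM and miR-214-3p at 989.7 CPM were the 2 exceptions, with a negative extraction level inside their 0 h range. Against the 2 h mean, the negative extraction was higher for miR-16-1-3p (1 count), miR-26a-2-3p, miR-30b-3p, miR-26b-3p, miR-181a-1-3p, miR-30d-3p and miR-671-3p. For miR-26b-3p it was 56.4 CPM (16 counts) against 36.6 CPM. It was lower than the 2 h mean for miR-27a-5p, miR-30c-2-3p, miR-92a-1-5p, miR-125b-1-3p, miR-221-5p and miR-214-3p. The part of unlabelled carry-over in the 2 h levels was not tested.

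The later time points show how much of each loss had happened by 2 h. miR-16-1-3p was at 18.3% of its 0 h mean at 2 h and at 15.9% at 12 h. The fall of miR-181a-1-3p was likewise mostly in place, with 48.9% left at 2 h and 40.2% at 12 h. miR-92a-1-5p went on falling, from 60.0% at 2 h to 16.1% at 12 h, and so did miR-214-3p, from 70.9 to 33.1%. miR-26b-3p and miR-30d-3p had higher means at 12 h (66.3 and 49.9% of 0 h) than at 2 h (52.4 and 41.2%). Of the 13 miRNAs, 10 had a lower mean at 12 h than at 2 h, and the share over all tested was not counted. These percentages are of CPM means over 3 experiments and share the 0 h libraries with the contrast, so they are a description.

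**Figure D2:**
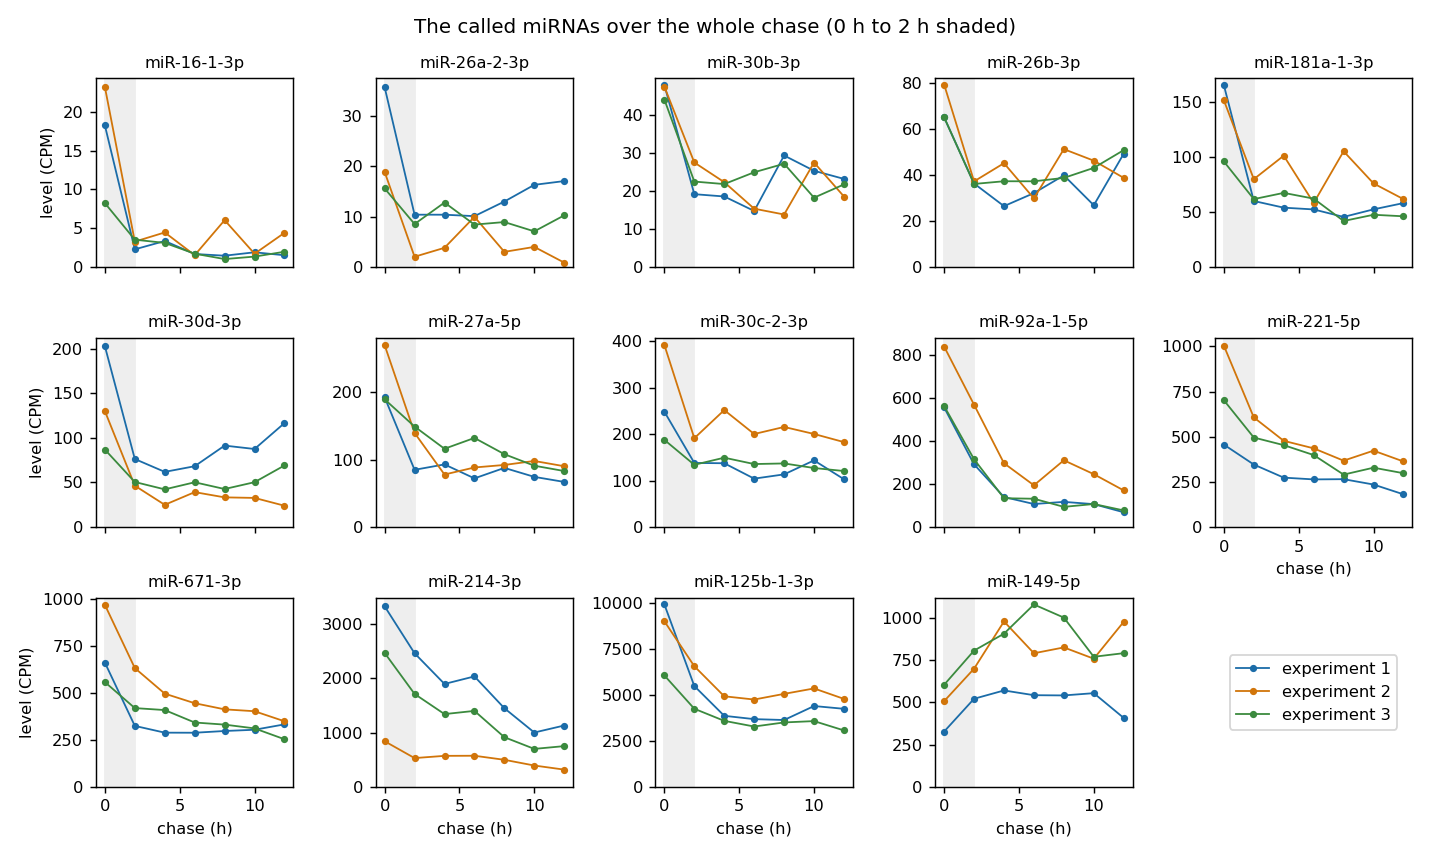
Level (CPM, linear axis from 0) of the 14 called miRNAs over 12 h of chase, 1 line per experiment, with the first 2 h shaded. miR-16-1-3p and miR-181a-1-3p had most of their fall within the shaded interval, while miR-92a-1-5p and miR-214-3p fell further after it.

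The arm ratio asks whether a minor arm moved against its own major arm. Where the major arm comes from 1 gene, this cancels anything that changes both arms of a hairpin alike. Of 117 hairpins with both arms tested, the minor arm was lost against the major arm in 15 (12.8%) and gained in 0 (0.0%). Tests were edgeR's exon-usage test with arms in place of exons, with the experiment as a block and adjustment over hairpins. In 14 of the 15 the CPM ratio was lower at 2 h in 3 of 3 experiments, beside 36 of all 117, and the exception was Mir181b-1. The minor arm was 3p in 12 of the 15 and 5p in 3, beside 74 and 43 of all 117 minor arms. In 10 of the 15 it was also called on its own. The remaining minor arm called on its own, miR-27a-5p, was not called on its ratio (log2 change of the ratio -0.50, edgeR adjusted p = 0.142). Its share of the hairpin was lower at 2 h in experiments 1 and 3 and higher in experiment 2 (16.1 and then 16.6%). The major arm's own fitted change was above 0 in 8 of the 15, a share near that of all major arms (60 of 110 in the test of mature miRNAs). Leaving out the experiment 1 library at 0 h gave 7 calls, its 2 h library 9, and all of experiment 1 gave 3. Without the block 1 ratio was called, and with the 6 libraries alone 13 were.

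**Figure D3:**
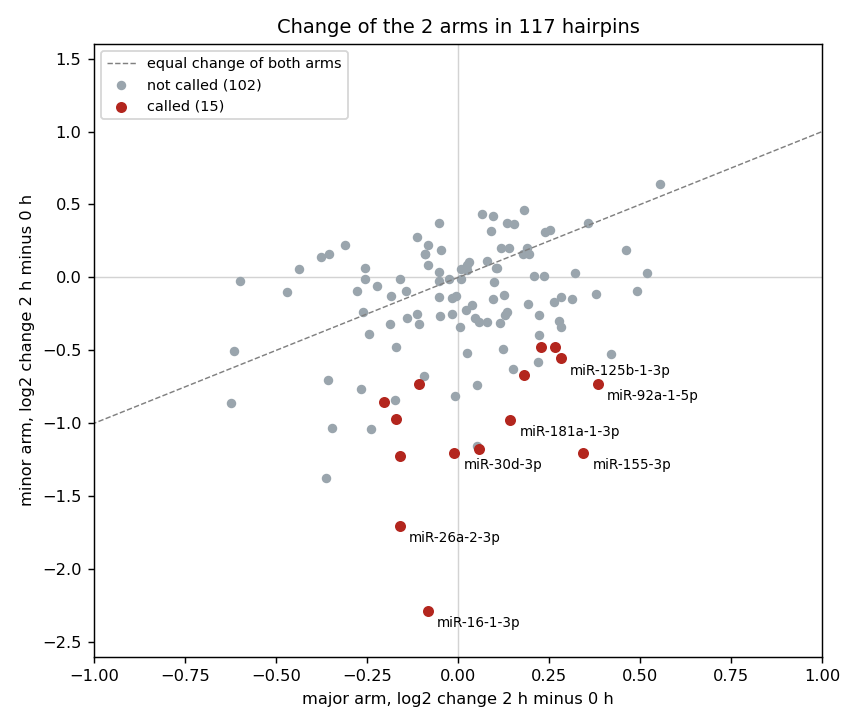
Log2 change from 0 h to 2 h of the minor arm (vertical axis) against that of the major arm (horizontal axis) in 117 hairpins, with the 15 called hairpins in red and a dashed line where both arms change alike. The called hairpins lie below the line, from miR-16-1-3p at the bottom to those near the line, and their major arms lie on both sides of 0.

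Mir16-1 had the largest change of ratio. Its minor arm made up 0.105, 0.215 and 0.0615% of the hairpin's counts at 0 h in experiments 1 to 3 and 0.0123, 0.0417 and 0.0279% at 2 h (log2 change of the ratio -2.20, edgeR adjusted p = 7.05e-07). The major arm counts of Mir16-1, Mir26a-1, Mir26a-2, Mir92-1, Mir181a-1, Mir181b-1, Mir125b-1, Mir128-1 and Mir30c-2 include reads from a second gene with the same mature sequence. Their shares can therefore understate the minor arm of the single locus, and a change in the output of 1 locus would not fully cancel in the ratio. In Mir92-1 the arms moved in opposite directions: miR-92a-1-5p went from 0.887, 0.848 and 0.698% of the hairpin to 0.367, 0.457 and 0.330% (log2 change of the ratio -1.11, edgeR adjusted p = 1.50e-06). This ratio and those of Mir16-1 and Mir155 were the 3 still called without experiment 1, at edgeR adjusted p-values of 0.0213, 0.0335 and 0.0430.

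Mir155, a hairpin known from activated immune cells, was called on its ratio alone. miR-155-3p measured 10.9, 10.3 and 17.1 CPM at 0 h and 5.71, 2.05 and 7.24 CPM at 2 h, while miR-155-5p measured 462, 391 and 778 CPM and then 589, 541 and 806 CPM. The minor arm's share of the hairpin was 2.30, 2.56 and 2.15% and then 0.959, 0.378 and 0.890%, without overlap (log2 change of the ratio -1.55, edgeR adjusted p = 0.00154). Neither arm passed on its own. The Mir128-1 hairpin in an intron of R3hdm1 was also called on its ratio alone, with a change of -0.85 (edgeR adjusted p = 0.0229), as was Mir125a in an exon of Spaca6, with -0.71 (edgeR adjusted p = 0.00543).

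Among the 15 called hairpins, the arms of Mir125b-1 were the nearest to equal at 0 h. miR-125b-1-3p made up 50.2, 43.7 and 37.1% of the hairpin's counts at 0 h and 31.7, 34.6 and 25.3% at 2 h, against 22.6% in total RNA (log2 change of the ratio -0.84, edgeR adjusted p = 0.0101). All 2 h shares lay below all 0 h shares and above total RNA. In Mir221 the minor arm had 24.1, 36.1 and 23.0% at 0 h and 13.9, 27.0 and 16.0% at 2 h, against 12.9% in total RNA (log2 change of the ratio -0.74, edgeR adjusted p = 0.0111). In Mir30b it had 14.1, 17.3 and 12.9% and then 6.53, 14.3 and 7.90%, against 1.87% in total RNA. In these 3 hairpins the captured pool at 0 h held a larger share of the minor arm than total RNA did, and at 2 h the share was smaller and still above that of total RNA. In Mir181a-1 the share went from 1.20, 0.838 and 0.501% to 0.425, 0.407 and 0.311%, below the 1.18% of total RNA.

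Hairpins with a strongly unequal pair of arms and hairpins with a more even pair had different values. In 62 hairpins the minor arm was under 10% of the hairpin in total RNA: 13 of these were called (21.0%) and 50 had a fitted ratio change below 0. In the 55 with 10% or more, 2 were called (3.64%) and 24 were below 0. The median change of the log2 ratio (CPM with a pseudocount of 1) in the first set was -0.48, -0.36 and -0.24 in experiments 1 to 3, and in the second set -0.19, 0.12 and -0.01. Over all 117 it was -0.36, -0.14 and -0.10, with a mean of -0.20 ± 0.14 (SD, n = 3 experiments; exact sign-flip p = 0.25, the smallest that 3 pairs allow). The difference between the 2 sets was not tested, and a hairpin with a rarer minor arm also has fewer counts behind it.

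**Figure D4:**
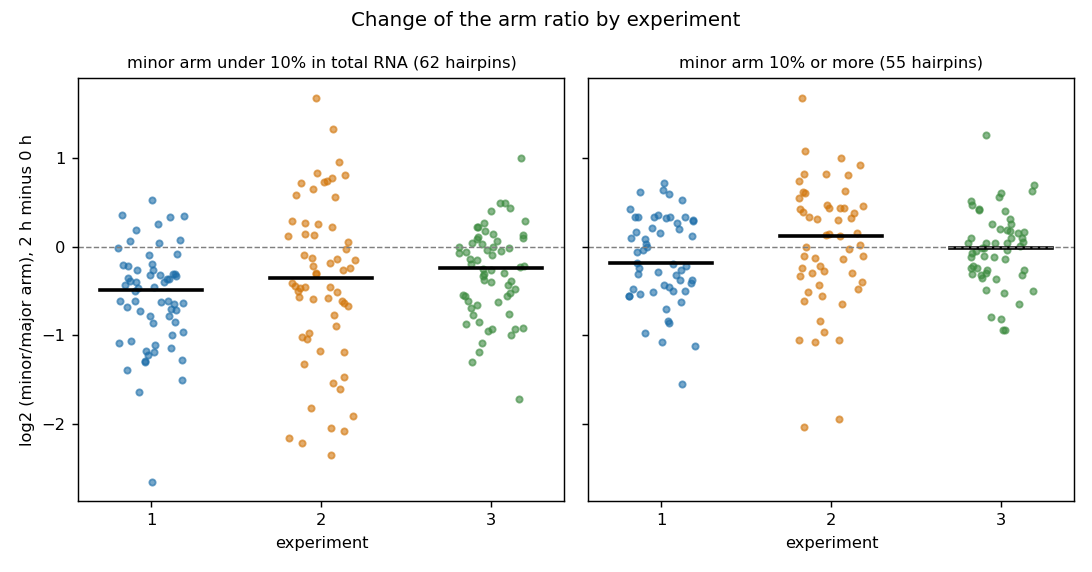
Change of log2 (minor arm over major arm) from 0 h to 2 h for each hairpin (points) in experiments 1 to 3, with the median as a bar, for hairpins whose minor arm is under 10% of the hairpin in total RNA (left) and for the others (right). The medians on the left are -0.48, -0.36 and -0.24, and those on the right are -0.19, 0.12 and -0.01.

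Summed together, minor arms were a small part of the captured pool, and a smaller one at 2 h in each experiment, largely through miR-125b-1-3p. The 117 minor arms took 3.56, 3.88 and 2.64% of all counts at 0 h and 2.83, 3.63 and 2.50% at 2 h, against 2.46% in unlabelled and 3.07% in 4SU total RNA. The decrease lay mostly with the called arms: the 11 of them went from 1.19, 1.19 and 0.800% to 0.653, 0.825 and 0.551%. The other 106 went from 2.37, 2.68 and 1.84% to 2.18, 2.81 and 1.95%, so their sum decreased in experiment 1 alone. In CPM, the 11 called arms summed to 11887, 11941 and 8002 at 0 h and 6533, 8247 and 5512 at 2 h. Within that sum, miR-125b-1-3p alone held 9900, 8987 and 6046 CPM and then 5470, 6546 and 4237 CPM. The smaller sum is therefore largely that of 1 miRNA and does not describe minor arms in general. Of the 117 minor arms, 11 fell (9.40%), with a median log2 change of -0.14, and of the 110 major arms 2 fell (1.82%), with a median of 0.02. Since the calls defined the set of 11, their sum is a description.

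Other families had few calls or none. Of 10 tested let-7 passenger strands, from the family that promotes differentiation, 0 were called, with a median log2 change of -0.37 and 3 at an unadjusted p under 0.05. let-7b-3p measured 75.1, 55.3 and 81.9 CPM at 0 h and 53.1, 36.9 and 79.1 CPM at 2 h (log2 change -0.32 ± 0.18). let-7d-3p differed from the rest of its list with 1938, 3061 and 1687 CPM at 0 h and 2296, 4097 and 2222 CPM at 2 h (log2 change 0.42 ± 0.17, edgeR adjusted p = 0.312). The 9 let-7 guides had a median of 0.06 and 0 calls. The miR-15 and miR-16 guides (7 tested) had a median of -0.09 and 0 calls, the miR-29 family (5 tested) -0.02 and 0 calls, and the miR-17-92 guides with their paralogs (9 tested) 0.11 and 0 calls. Of 9 miRNAs reported elsewhere as substrates of target-directed degradation, 0 were called, with a median of -0.12. The repeat family with the stems miR-297, miR-466, miR-467 and miR-669, whose near-identical members share reads, had 30 tested members, 0 calls and a median of -0.24.

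On the other side, 1 miRNA gained share. miR-149-5p, from an intron of Gpc1 (chr1:92850381-92850403, plus strand), has the sequence below.
miR-149-5p: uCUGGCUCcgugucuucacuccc

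It measured 327, 507 and 605 CPM at 0 h and 522, 699.9 and 807 CPM at 2 h, higher in 3 of 3 experiments, which held for 11.8% of all tested (log2 change 0.58 ± 0.14, edgeR adjusted p = 0.0111). The groups overlapped, since experiment 1 was low at both times. Unlabelled total RNA had 479 CPM, 4SU total RNA 293 CPM and the negative extraction 141 CPM. The mean went on to 151% of 0 h at 12 h, after 141% at 2 h. It was not called without the 0 h library of experiment 1 (edgeR adjusted p = 0.115).

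The next 4 miRNAs by p-value in this direction did not pass. miR-3058-3p had 1.03, 0.331 and 1.30 CPM at 0 h and 3.42, 4.10 and 2.78 CPM at 2 h, which is 1 to 8 counts and 10 to 27 counts (log2 change 1.81 ± 0.53, edgeR adjusted p = 0.0558). miR-222-3p, which shares its seed GCUACAU with miR-221-3p, measured 8659, 14849 and 9213 CPM and then 10306, 22142 and 12180.1 CPM (log2 change 0.48 ± 0.15, edgeR adjusted p = 0.108). miR-92a-3p, the guide of the miR-17-92 cluster with the most counts here, measured 61997, 97844 and 79818 CPM and then 78774, 123635 and 94736 CPM (log2 change 0.37 ± 0.12, edgeR adjusted p = 0.108). miR-5099 had 288, 530.3 and 341 CPM and then 318, 758 and 513 CPM (log2 change 0.47 ± 0.16, edgeR adjusted p = 0.131). In each of the 4 the value was higher in 3 of 3 experiments, and in miR-3058-3p alone the times did not overlap, as in 1.45% of all tested in this direction. Later, miR-92a-3p was at 159% of its 0 h mean at 12 h, while miR-222-3p was at 90.3%.

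miRNAs that bypass Drosha, such as mirtrons, which are released by splicing, were examined because their maturation has fewer steps. Of 5 tested, 0 were called and the median log2 change was 0.35. All 5 had a log2 change above 0, and 3 were higher in 3 of 3 experiments, which held for 11.8% of all tested. In the edgeR test 1 had an unadjusted p under 0.05, beside 45 of all 414. miR-877-5p measured 279, 384 and 224 CPM at 0 h and 292, 637 and 244 CPM at 2 h (log2 change 0.35 ± 0.20, edgeR adjusted p = 0.527). miR-702-3p had 44.0, 70.9 and 66.1 CPM and then 69.6, 90.6 and 73.1 CPM (log2 change 0.45 ± 0.21, edgeR adjusted p = 0.398), and miR-877-3p a log2 change of 0.36 ± 0.19. The capped precursors miR-320-3p and miR-484 had log2 changes of 0.03 ± 0.14 and 0.02 ± 0.12. No single miRNA of this list passed, and the list as a whole was not tested.

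Among the most abundant miRNAs other than miR-92a-3p, the levels at both times were as follows. let-7f-5p was at 118743 ± 21470 CPM (SD, n = 3) at 0 h and 119321 ± 29805 CPM at 2 h. miR-143-3p, a smooth muscle and fibroblast miRNA, was at 104411 ± 33756 and 95009 ± 39166 CPM. miR-21a-5p, induced in growing fibroblasts, was at 55464 ± 12048 and 57161 ± 11505 CPM. None of the 10 most abundant miRNAs passed the edgeR test, and their log2 changes ranged from -0.20 for miR-27b-3p to 0.37 for miR-92a-3p.

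The sequences of the miRNAs that fell were described by base content, since 4SU can enter only at uridines. Of the 13, 11 had a RefSeq sequence, and of all 414 tested, 346. The 11 held 1 to 12 U with a median of 7, or 31.8% of the bases, beside a median of 6 U (27.3%) in all tested and in all minor arms. The extremes were miR-26a-2-3p with 12 U of 22 bases and miR-214-3p with 1 U. Their first base was A in 6, C in 4 and U in 1, while U was the first base of 56.1% of major arms, 16.2% of minor arms and 40.5% of all tested. Guides tend to begin with U, which Argonaute binds preferentially.

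Isoforms were compared by class: the canonical sequence, trimmed forms, and forms with templated (matching the genome) or non-templated bases added at either end. The classes are read from the entry names, since no source used here defines them. In a test of each class against its own miRNA, 0 of 867 entries were called by edgeR (0.0%), 16 had an unadjusted p under 0.05, 6 of them with a gain, and limma's equivalent test called 2. miR-125b-1-3p, chosen as an example after its values were seen, shows a difference that did not pass. Its trimmed forms made up 15.3, 26.3 and 18.3% of the miRNA at 0 h and 24.6, 35.8 and 24.3% at 2 h, while its canonical form went from 80.2, 69.1 and 78.3% to 71.3, 60.3 and 72.2%. In each experiment the trimmed share was larger at 2 h, and the test gave no call (log2 change of usage 0.52, edgeR adjusted p = 0.870).

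Splitting the non-templated 3′ additions by base, an alternative chosen after seeing the data, gave 2 calls among 1139 entries (0.176%), both of them losses. The form of miR-92a-3p with an added G went from 0.423, 0.363 and 0.277% of that miRNA to 0.281, 0.195 and 0.129% (log2 change of usage -0.82, edgeR adjusted p = 0.00181). It was lower at 2 h in each experiment and rests on 587 to 2028 counts per library. The templated 5′ extension of miR-671-3p went from 11.5, 9.10 and 8.21% of the miRNA to 5.67, 4.09 and 4.12%, without overlap (log2 change of usage -1.11, edgeR adjusted p = 0.0427). A 5′ extension shifts the seed, so this form has another seed than the canonical miRNA. It rests on 211 to 585 counts at 0 h and 63 to 145 counts at 2 h. limma's test also called this form, and with it the trimmed form of miR-21a-3p.

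Over whole libraries the 4 most abundant classes differed by small amounts between the times. Canonical forms took 54.3, 52.1 and 47.5% of counts at 0 h and 53.2, 50.8 and 47.0% at 2 h, a mean change of -0.97 ± 0.42 percentage points (SD, n = 3). Trimmed forms went from 20.5, 17.7 and 23.7% to 19.7, 15.9 and 22.9%, a mean change of -1.13 ± 0.56 points. Templated 3′ extensions went from 12.8, 16.5 and 14.7% to 14.4, 18.2 and 15.6%, a mean change of 1.42 ± 0.44 points. Non-templated 3′ additions changed by 0.68 ± 0.62 points on average. Each of these 4 was in the same direction in 3 of 3 experiments, for which the exact sign-flip p is 0.25, the smallest possible, and the groups overlapped. The rarer non-templated 5′ additions were higher in 2 of 3 experiments. Templated 3′ extensions took 18.8% in unlabelled and 19.1% in 4SU total RNA, and trimmed forms 14.5 and 14.0%.

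**Figure D5:**
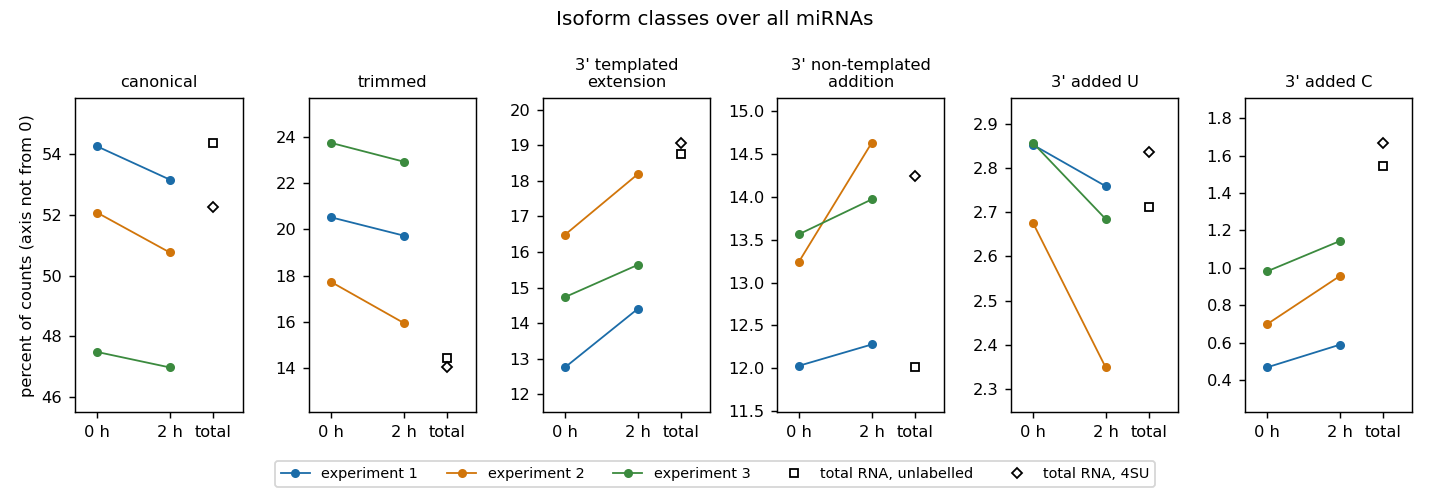
Percent of all miRNA counts in 6 isoform classes at 0 h and 2 h, 1 line per experiment, with the 2 total RNA libraries as black open symbols; each axis has its own range and does not start at 0. In these classes (canonical, trimmed, templated 3′, non-templated 3′, added U and added C) the 3 lines run in the same direction, and for canonical, trimmed and templated 3′ forms the experiments lie further apart than the times.

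A large part of this came from a single miRNA. miR-92a-3p alone contributed 1.13 of the 1.42 points of templated 3′ extension and 0.72 points of non-templated 3′ addition, and its own level was higher at 2 h in each experiment. Its own share of templated 3′ forms was 51.8, 54.4 and 44.8% at 0 h and 55.7, 53.4 and 47.5% at 2 h. Without miR-92a-3p the mean changes were 0.05 points for canonical, -0.81 for trimmed, 0.57 for templated 3′ and 0.18 for non-templated 3′ forms. Within minor arms the canonical share was lower in each experiment, with a mean change of -3.32 points, but without miR-125b-1-3p the mean change was -0.56 ± 0.76 points, with 1 of 3 experiments higher.

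By added base, 3′ uridine and 3′ cytidine had opposite signs. Forms with added U, a mark linked to miRNA turnover, made up 2.85, 2.68 and 2.86% of counts at 0 h and 2.76, 2.35 and 2.68% at 2 h. Forms with added C went from 0.468, 0.698 and 0.981% to 0.589, 0.956 and 1.14%, and forms with added G from 0.123, 0.117 and 0.113% to 0.103, 0.0900 and 0.0877%. Added A, the commonest tail of a single base, was at 4.51, 4.42 and 4.13% and then 4.32, 4.71 and 4.07%, with 1 of 3 experiments higher. The largest change was that of entries named mixed, from 4.07, 5.33 and 5.48% to 4.51, 6.52 and 5.99%. Their mean change was 0.71 points, beside 0.68 for all non-templated 3′ additions. Without miR-92a-3p the latter was 0.18 points, with 2 of 3 experiments higher. No shares by base are given without that miRNA, so its part in them is not known. The U and G shares were lower and the C and mixed shares higher in 3 of 3 experiments (exact sign-flip p = 0.25 each). For added G, all 2 h values lay below all 0 h values. In minor arms added U went from 3.44, 3.09 and 3.05% to 3.06, 2.65 and 2.82%, and mixed entries were higher in 3 of 3 experiments. The other bases differed there from the whole library: C was higher in 2 of 3 experiments, G in 1 of 3 and A in 3 of 3.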

How the data were processed

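Small RNA libraries of 3T9 cells were analysed from the authors' table of raw counts, deposited per isoform class of each mature miRNA, with 7129 entries for 1221 names. Base calling used CASAVA 1.8.0, per the submitters' processing notes; no source used here gives the aligner, the annotation or the treatment of multi-mapping reads. Near-identical miRNAs may share reads. Entries that total or repeat others equalled them in 25728 of 25728 cells and were used once; 1 repeated entry was removed. Counts were summed per mature miRNA over the 8 classes that do not overlap.

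Tests used edgeR 4.0.16 in R 4.3.3 (quasi-likelihood, TMM, filterByExpr by time) on all 21 labelled libraries, with time as a factor and the experiment as a block, and Benjamini-Hochberg adjustment at 0.05. TMM assumes that most miRNAs keep their proportions; factors were 0.977 to 1.13 in the 6 libraries. CPM values use library totals. Usage of classes and arms was tested with diffSpliceDGE. Arms were paired through RefSeq genes, or by name in 12 of 117 hairpins. Scripts were tested on simulated data. The alternatives were limma 3.58.1, DESeq2 1.42.0, other scalings, filters and fits without single libraries. Floors of 3 counts cover counting error only, and the reads carry no molecular identifiers; SEs and SDs include the spread between libraries.

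The design text calls the experiments independent biological replicates, and libraries of one experiment deviated together: after subtracting the mean of each time, the 6 libraries correlated at 0.675 to 0.687 in the 3 pairs of one experiment, against -0.605 to 0.079 in the 6 pairs of different experiments. Experiments also differ in their header codes, so experiment and code cannot be told apart.

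Members and lists were chosen with earlier results of these data known. Named were the called miRNAs moving the same way in 3 experiments at 10 CPM or more (up to 15 per direction, or the 5 with the smallest p where fewer than 5 passed), the 10 called hairpins with the largest change, the 10 most abundant miRNAs, and list members by abundance; other names were chosen after their values were seen.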

Additional observations from a re-analysis of the deposited data

How the results depend on the processing

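The result for mature miRNAs rests on the pairing, on the spread taken from later times and on experiment 1. The 14 calls became 0 with no replicate block (10 miRNAs with an unadjusted p under 0.05), 0 with the 6 libraries alone and the block (53), 0 with the 6 alone and no block (10; added after seeing the data), and 7 with all entries summed. Leaving out single libraries or experiments gave 0 to 17 calls. DESeq2 called 15, limma-voom 20, upper-quartile scaling 10, and all 14 were shared with the total-count scaling, DESeq2 size factors, DESeq2 and limma-voom. The 15 arm ratios became 1 with no replicate block and 9 with canonical forms only (75 hairpins), and 3 to 18 when libraries or experiments were left out; none was gained in any setting. The 0 isoform calls became 2 with limma and 2 with 3′ additions split by base, and stayed 0 (lowest and highest) when libraries were left out and with no replicate block. The median arm ratio of -0.20 was -0.36 in hairpins with a minor arm under 10%. Class changes in percentage points moved without the 10 most abundant miRNAs to -0.10 (canonical), 0.55 (templated 3′) and 0.045 (non-templated 5′), and with each miRNA weighted equally to -0.47 (canonical), -0.16 (trimmed), 0.0090 (templated 3′) and -0.030 (templated 5′). The cause of these shifts was not tested, except that canonical-only arms leave fewer hairpins and left-out libraries fewer samples. Without miR-92a-3p, an alternative added after seeing the data, the canonical change of -0.97 turned to 0.046 and the templated 3′ change became 0.57. Without miR-125b-1-3p, also added then, the canonical change within minor arms went from -3.32 to -0.56. Depth limits miRNAs near 1.23 CPM, such as miR-3058-3p.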
